A study of Homo sapiens with 12 samples.

Results

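GAS5 and SNHG1 are noncoding genes whose introns carry small nucleolar RNAs (snoRNAs). They were the measured members of a set of 9 long noncoding RNAs named by symbol. The set held 3 nuclear long noncoding RNAs (MALAT1, NEAT1 and TUG1) and 6 snoRNA host genes (GAS5, SNHG1, SNHG5, SNHG8, SNHG12 and EPB41L4A-AS1). GAS5 (ENSG00000234741) and SNHG1 (ENSG00000255717) each matched 1 of the 53361 gene rows, by symbol and by gene identifier. No row matched the other 7 members by symbol or by gene identifier, so nuclear long noncoding RNAs could not be set against snoRNA hosts.

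RNA was sequenced from hTERT-RPE1 cells, an established human line of retinal pigment epithelium that telomerase made immortal, in 12 libraries of 4 groups with 3 libraries each. Control cells were untreated, and the labels name no vehicle for them. Reversine, an inhibitor of the mitotic kinase MPS1 that causes chromosome missegregation, was given at 0.5 µM for 24 h and washed out 48 h before harvest. BafA1 (bafilomycin A1), which blocks lysosome acidification, was given at 0.1 µM for 6 h, and MG132, a proteasome inhibitor, at 1 µM for 24 h. Exposure times therefore differed between the groups, and every comparison with control used the same 3 control libraries. The labels do not state whether a group's 3 libraries are separate cultures, and a p-value here reflects the spread between the libraries alone, which may be technical.

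In host genes of this kind the snoRNA is trimmed out of a spliced intron, while the joined exons leave the nucleus. C/D box snoRNAs, which guide 2′-O-methylation of ribosomal RNA, are packaged with the proteins FBL, NOP56, NOP58 and NHP2L1, and H/ACA snoRNAs, which guide pseudouridylation, with DKC1, NHP2, NOP10 and GAR1. The spliced GAS5 and SNHG1 RNAs have only short reading frames, are engaged by ribosomes and are then degraded by nonsense-mediated decay, a process that needs ongoing translation. Their promoters belong to the terminal oligopyrimidine class, in which transcription starts at a C followed by a run of pyrimidines, as it does in ribosomal protein genes.

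The transcripts behind each value limit what it measures. The GAS5 row listed 17 transcripts, and all 17 were of the retained intron type in GENCODE v29, while none of the 10 GAS5 transcripts of the lincRNA type was among them. The SNHG1 row listed 13 transcripts, again all of the retained intron type, with none of 12 lincRNA transcripts. Over the whole table, 83.5% of retained intron transcripts and 10.2% of lincRNA transcripts of GENCODE v29 were listed. Retained intron forms share exons with the spliced forms, so a GAS5 or SNHG1 level here is the read density assigned to models that retain introns, and the share that came from spliced RNA was not measured.

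The first 40 bases of 1 listed transcript of each gene (ENST00000431268 and ENST00000538654) are shown to set their openings beside that start-site pattern, with the opening run of pyrimidines in capitals (GENCODE v29 sequences, GRCh38 annotation).
GAS5: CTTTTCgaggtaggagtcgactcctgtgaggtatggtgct
SNHG1: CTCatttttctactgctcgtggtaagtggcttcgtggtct
A start with C followed by pyrimidines to a run of at least 5 was found in 5 of 17 listed GAS5 transcripts (29.4%), in 1 of 13 listed SNHG1 transcripts (7.69%) and in 2.41% of all 206534 GENCODE v29 transcripts. The SNHG1 transcript shown opens with C, T and C before an A interrupts the run, and the SNHG1 transcript with such a start is not shown. Each transcript shown is the longest listed for its gene. These are annotated openings, and transcription starts were not measured. The 5 GAS5 transcripts with such a start share the same first 40 bases.

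The retained introns carried whole snoRNA sequences in SNHG1. Of its 13 listed transcripts, 7 contained at least 1 complete snoRNA, and 5 different C/D box snoRNAs were found: SNORD22, SNORD25, SNORD26, SNORD27 and SNORD28. The box motifs of that class, TGATGA for C and CTGA for D, were searched as exact strings and are capitalised in the pair that held both.
SNORD27: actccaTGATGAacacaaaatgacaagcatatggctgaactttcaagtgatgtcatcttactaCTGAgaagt
SNORD25: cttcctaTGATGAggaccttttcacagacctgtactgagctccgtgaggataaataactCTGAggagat
SNORD27 lay inside 4 of the listed SNHG1 transcripts and SNORD25 inside 3. RefSeq places 11 snoRNA genes in GAS5 and 9 in SNHG1. GENCODE v29 gave a sequence under the same name for 6 of the SNHG1 snoRNAs and for 0 of the GAS5 snoRNAs, so the GAS5 transcripts could not be searched in this way. The libraries were made from oligo(dT)-selected, size-selected RNA, and mature snoRNA levels are not described.

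Both genes were highly expressed, with the mean GAS5 level at percentile 98.6 of the 30712 tested rows and the mean SNHG1 level at percentile 94.5. Values are the deposited FPKM, a read density that is divided by transcript length and by the number of mapped fragments. The table holds no read counts, so no counting error can be attached to a value. In bulk RNA, fewer cells expressing a gene and less RNA per cell cannot be told apart. Relative to the mean of the libraries, values fell with transcript GC content in 4 of the 12 libraries (reversine 1, BafA1 3, MG132 2 and MG132 3), with slopes of -0.466 to -0.087 on the log2 scale per 10 points of GC, and rose with it in the other 8, with slopes of 0.089 to 0.21. GAS5 and SNHG1 are low in GC, at 41.6% and 44.0% over their listed transcripts. The number of rows at 0 also differed, at 10150 in MG132 2, 9689 in MG132 3 and 9118 in control 3. It was 1875 in MG132 1 and 889 to 4240 across the remaining libraries, and its part in the host gene values was not tested. Of 12 retinal pigment epithelium markers, 4 had a mean of at least 5 FPKM, the keratins KRT8 and KRT18 among them, while the defining visual-cycle gene RPE65 stayed at or below 0.06 FPKM in every library. The summed marker level was 1243 to 1405 FPKM in control, 1304 to 1579 FPKM in reversine libraries, 1154 to 1279 FPKM in BafA1 libraries and 480.2 to 736 FPKM in MG132 libraries. KRT8 and KRT18, at 819 and 442 FPKM in control and 345 and 199.9 FPKM after MG132 (means), made up most of the sum and were the only 2 of 9 tested markers called after MG132; 5 of the 9 differences were positive. The 10 markers of other cell types summed to 18.7 to 21.8 FPKM in control, 17.3 to 24.9 FPKM in reversine libraries, 22.6 to 27.3 FPKM in BafA1 libraries and 24.2 to 48.1 FPKM in MG132 libraries, with RBFOX3 the only one at a mean of 5 FPKM or more. After MG132 all 7 tested markers of other cells had positive differences (median 0.50, beside 0.04 over all tested rows) and none was called. Of these, CDH5 (0.99 to 1.47 FPKM) and EPCAM (0.77 to 1.18 FPKM) lay near the 1 FPKM filter and were highest in BafA1 2, as was PECAM1. PTPRC, CDH1 and HBB were highest in MG132 2 and next in MG132 3. PTPRC stood there at 13.2 and 8.31 FPKM against 3.12 to 4.46 FPKM in control, and CDH1 at 9.66 and 6.86 FPKM against 2.41 to 3.55 FPKM. RBFOX3 was highest in MG132 2, at 15.8 FPKM, but stood at 8.98 FPKM in MG132 3, within the control range. The part of these markers in the host gene values was not tested.

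GAS5, named for its accumulation in growth-arrested cells, was higher after MG132 than in control cells by 1.72-fold. Its level was 188, 196 and 206 FPKM in control, 263, 280.3 and 289 FPKM after reversine, 197, 192 and 279.8 FPKM after BafA1 and 239, 372 and 399.9 FPKM after MG132. All reversine and all MG132 libraries lay above all controls, a separation in that direction found for 9.97% and 20.3% of the tested rows, while BafA1 overlapped control and only BafA1 3 stood clear of it. The controls were tight, at 196 ± 8.9 FPKM (SD, n = 3), and MG132 was spread most, at 337 ± 86.3 FPKM (SD, n = 3).

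**Figure D1:**
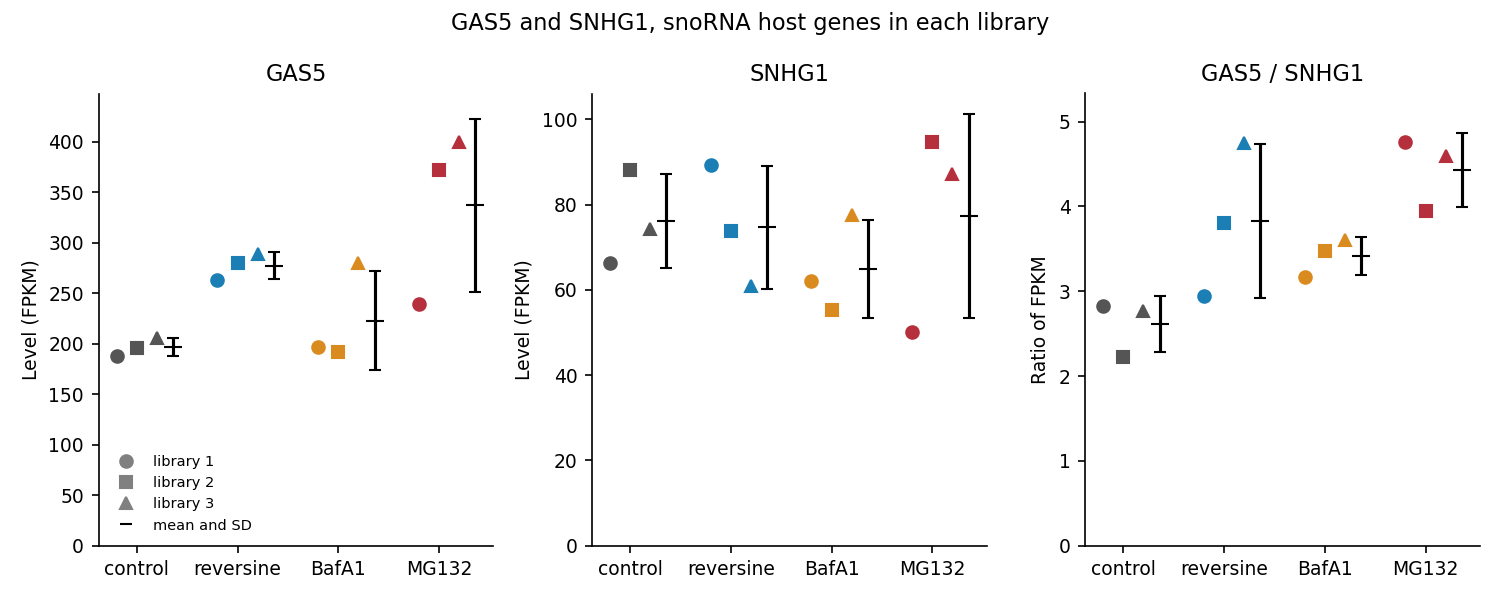
Level of GAS5 and SNHG1 in FPKM and the GAS5 to SNHG1 ratio (vertical axes, linear from 0) in each library of the 4 groups, with symbols for libraries 1 to 3 and the mean with SD beside them. GAS5 lies between 188 and 206 FPKM in control and between 239 and 399.9 FPKM after MG132, SNHG1 overlaps in all groups, and the ratio is above the controls in all 9 treated libraries.

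On the log2(FPKM + 1) scale the GAS5 difference from control was 0.74 ± 0.20 (SE) for MG132, with a 95% interval of 0.29 to 1.2 and a limma adjusted p of 0.0376, and it was the only call for either gene in the 6 comparisons. In that comparison 14.8% of tested rows were called, 7.14% as higher. The difference was 0.49 ± 0.20 for reversine (limma adjusted p = 0.36), where 2.09% of rows were called, 0.801% as higher, and 0.16 ± 0.20 for BafA1 (limma adjusted p = 0.749), where 0.264% were called, 0.202% as higher. The 95% interval of the reversine difference, unadjusted, was 0.04 to 0.95. In order of mean the groups ran control, BafA1, reversine and MG132. No neighbours in that order passed the test: BafA1 minus reversine was -0.33 (limma adjusted p = 0.948) and MG132 minus reversine 0.25 (limma adjusted p = 0.356). MG132 minus BafA1 was 0.58 (limma adjusted p = 0.111). Between treatments 1.23%, 6.51% and 10.9% of rows were called for those 3 comparisons.

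The GAS5 call after MG132 was kept in 6 of 19 alternative settings and lost in 13. Leaving out control 1, 2 or 3, reversine 2 or 3, BafA1 1, or MG132 2 or 3 gave limma adjusted p-values of 0.0535 to 0.149 with differences of 0.60 to 0.77, while leaving out MG132 1, the lowest of its group, raised the difference to 0.97 (limma adjusted p = 0.00148). Without MG132 1 the differences of MG132 from reversine and from BafA1 also passed (limma adjusted p = 0.0289 and 0.0038). Median-ratio scaling gave a difference from control of 0.45 (limma adjusted p = 0.0751), a fit of only the 2 groups left it at 0.74 (limma adjusted p = 0.112), and no filter gave a limma adjusted p of 0.0566. After removal of each library's trend with GC content and length the difference was 0.26 (limma adjusted p = 0.149), and without the 4 libraries in which values fell with GC it was 0.28 (limma adjusted p = 0.0974), with MG132 1 alone in its group and assumed to vary like the others. The median difference in this comparison was 0.04 over all 30712 tested rows. In the corrected fit it was -0.26, over the 25349 rows with GC content and length. GAS5 lay above the median in both fits. With the same 4 libraries left out, GAS5 after reversine was 0.53 higher than control and passed the test (limma adjusted p = 0.0266).

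SNHG1 passed the test in none of the 6 comparisons. Its level was 66.3, 88.1 and 74.3 FPKM in control and 89.4, 73.7 and 60.8 FPKM after reversine. It was 62.0, 55.2 and 77.6 FPKM after BafA1 and 50.1, 94.7 and 87.1 FPKM after MG132. Every treated group overlapped control, and MG132 held both the lowest and the highest of the 12 libraries. The differences from control were -0.04 ± 0.26 for reversine, -0.23 ± 0.26 for BafA1 and -0.02 ± 0.26 for MG132 on the log2 scale (SE), with limma adjusted p-values of 0.935, 0.733 and 1.0. Their 95% intervals were -0.62 to 0.54, -0.81 to 0.35 and -0.60 to 0.56, so changes of either sign within those limits remain compatible with these values. Between treatments the SNHG1 differences were -0.20 (BafA1 minus reversine), 0.01 (MG132 minus reversine) and 0.21 (MG132 minus BafA1), none of them called.

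GAS5 and SNHG1 shared part of their variation between libraries and differed in the rest. Within a library the ratio of the 2 levels does not depend on how libraries are scaled to each other. The GAS5 to SNHG1 ratio of FPKM was 2.83, 2.23 and 2.77 in control, 2.94, 3.8 and 4.75 after reversine, 3.17, 3.48 and 3.60 after BafA1 and 4.76, 3.94 and 4.59 after MG132. All 9 treated libraries lay above the 3 controls, reversine 1 by the smallest margin. The means were 2.61 ± 0.332 in control, 3.83 ± 0.905 after reversine, 3.42 ± 0.222 after BafA1 and 4.43 ± 0.437 after MG132 (SD, n = 3). The ratio is given as a description with no test, and it does not show which gene changed. How often the ratio of other gene pairs separates in this way was not computed. After the GC and length correction, GAS5 minus SNHG1 on the log2 scale was 1.18 to 1.55 in control and 1.46 in reversine 1, which then overlapped control, while the other 8 treated libraries, at 1.70 to 2.28, lay above it.

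**Figure D2:**
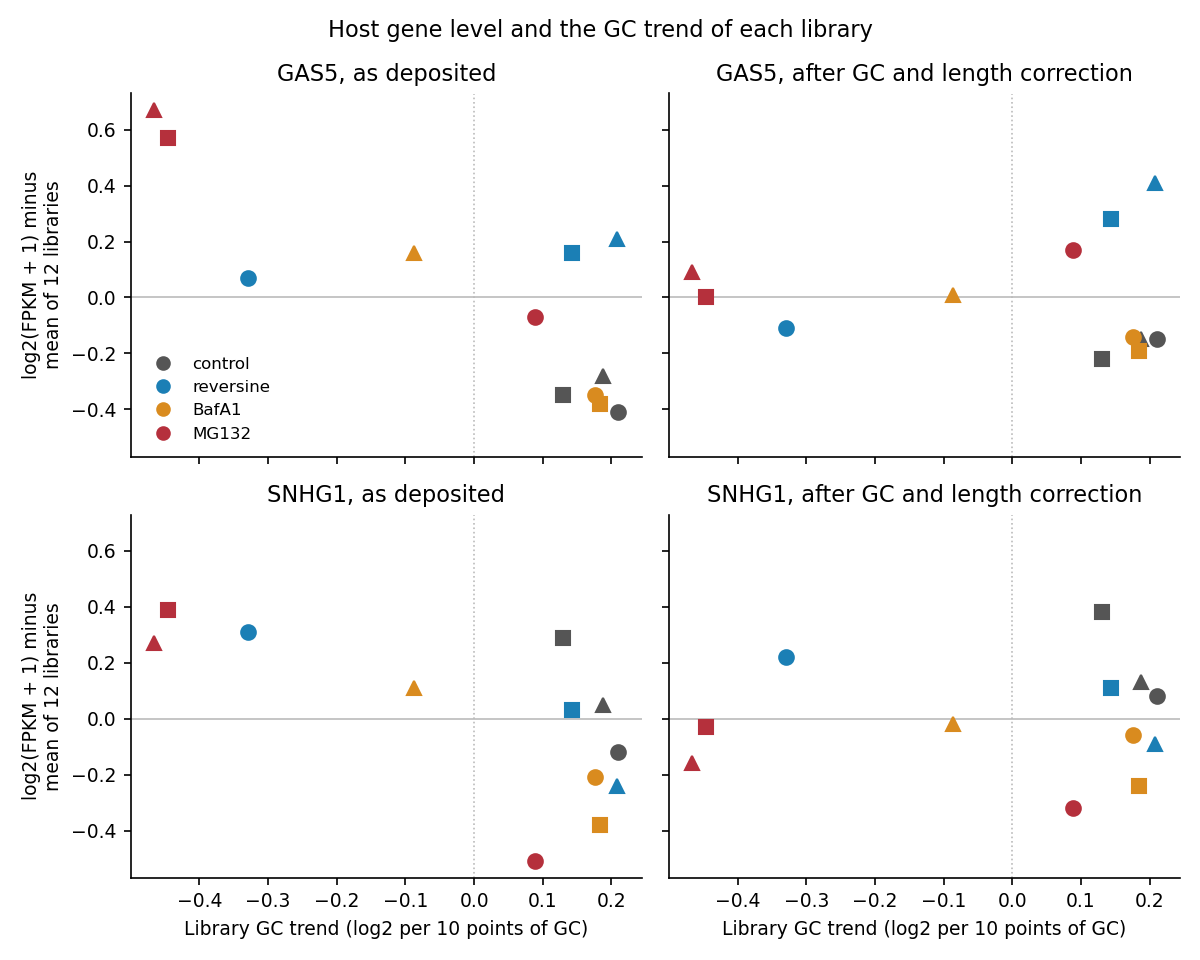
Level of GAS5 (top) and SNHG1 (bottom) in each library as log2(FPKM + 1) minus the mean of 12 libraries (vertical axis), as deposited and after correction for GC content and length, against the library's trend with GC content (horizontal axis, log2 per 10 points of GC); colours mark groups and symbols libraries 1 to 3. As deposited, MG132 2 and 3 stand 0.57 and 0.67 above the mean for GAS5, and after correction they stand at 0.00 and 0.09.

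The GC trend moved with both genes. MG132 2 and 3, with slopes of -0.446 and -0.466, were the highest libraries for GAS5 and 2 of the 4 highest for SNHG1, and BafA1 3, at -0.087, was the highest of its group for both. Reversine 1, at -0.329, was the highest of its group for SNHG1 but the lowest for GAS5. After correction the 3 controls stood at -0.22 to -0.15 for GAS5 and the 3 MG132 libraries at 0.00 to 0.17, while SNHG1 in MG132 stood at -0.32 to -0.03 against 0.08 to 0.38 in control. SNHG1 after MG132 was then 0.37 below control (limma adjusted p = 0.0488), beside a median of -0.26 over the rows with GC content and length in that fit. The part of the GC trend in the differences of both genes was not tested beyond these values.

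Other noncoding snoRNA hosts, a list of 19 symbols, had 7 with rows, all tested: SNHG3, SNHG7, SNHG10, SNHG14, SNHG16, SNHG20 and SNHG21. None was called after reversine or BafA1, where 2.09% and 0.264% of rows were, and 1 of 7, SNHG20, was higher after MG132, where 7.14% of rows were called higher and 7.67% lower. The list medians were -0.24, -0.20 and 0.22 for the 3 treatments, beside 0.09, 0.14 and 0.04 over all tested rows. SNHG20 stood at 5.08, 7.30 and 6.12 FPKM in control and at 9.41, 13.5 and 11.8 FPKM after MG132. It lay wholly above control there, as 20.3% of tested rows did, and its difference was 0.81 ± 0.23 (limma adjusted p = 0.0465). That call was kept in 4 of 19 alternatives. It was lost when any of 10 single libraries was left out, all except reversine 1 and MG132 1 (limma adjusted p from 0.0597 to 0.157).

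Among the noncoding hosts SNHG7 was closest to GAS5 in level, and unlike GAS5 it had lower means after reversine and BafA1 than in control. It stood at 143, 137 and 157 FPKM in control, 68.8, 123 and 133 FPKM after reversine, 113, 106 and 100.1 FPKM after BafA1 and 209, 179.9 and 169 FPKM after MG132. Reversine and BafA1 lay wholly below control, as 10.1% and 7.42% of tested rows did, and MG132 wholly above it, as 20.3% did. The differences of -0.48, -0.45 and 0.35 did not pass limma's test (adjusted p = 0.439, 0.529 and 0.277). With the GC and length correction the MG132 difference was 0.62 (limma adjusted p = 0.00121), and without reversine 1 it also passed (limma adjusted p = 0.0459). SNHG10 was the most uneven host: it stood at 91.4 and 39.3 FPKM in MG132 2 and 3 and at 5.35 FPKM in MG132 1, against 8.91 to 24.7 FPKM in control. Its difference was 0.93 ± 0.84 (limma adjusted p = 0.404), and without MG132 1 it was 2.02 (limma adjusted p = 0.0114). SNHG3, at 19.2, 21.2 and 41.4 FPKM in control, was 12.5, 13.7 and 13.5 FPKM after MG132, below every control, as 13.5% of tested rows were, and without passing the test (-0.90, limma adjusted p = 0.105). With the GC and length correction SNHG3 was lower after MG132 (-1.27, limma adjusted p = 0.0155).

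**Figure D3:**
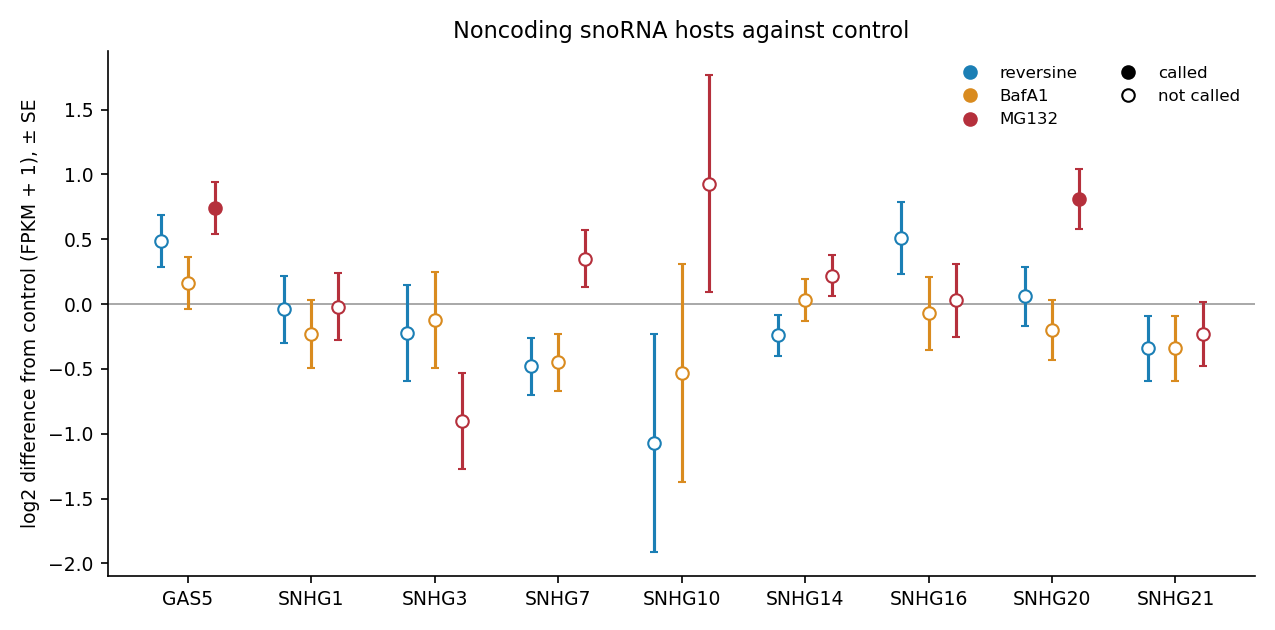
Log2 difference from control on the log2(FPKM + 1) scale (vertical axis, bars show the SE) of the 9 noncoding snoRNA hosts with a row, after reversine, BafA1 and MG132; filled points passed limma's test at an adjusted p of 0.05. GAS5 at 0.74 and SNHG20 at 0.81 after MG132 are the filled points, and SNHG10 has the widest bars.

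Of 24 symbols of other long noncoding RNAs, 5 had rows and 3 were tested, and none was called against control.

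Genes listed for snoRNA particles were lower in part after each treatment. The list held the core proteins named above and also NAF1, NOLC1, RUVBL1 and RUVBL2, which are not among them. Of 12 tested, 4 fell after reversine (NOP56, DKC1, RUVBL1 and FBL), 2 after BafA1 (NOP56 and DKC1) and 6 after MG132 (DKC1, NHP2, FBL, RUVBL1, NOP56 and NHP2L1), and none rose. Lower calls were made for 1.29%, 0.0619% and 7.67% of all tested rows. The medians of the list were -0.43, -0.46 and -0.67, and after BafA1 all 12 differences were negative. DKC1, the pseudouridine synthase of H/ACA particles, stood at 92.7, 91.4 and 108 FPKM in control, 56.8, 55.1 and 59.5 after reversine, 60.2, 51.1 and 57.2 after BafA1 and 45.3, 40 and 37.8 FPKM after MG132. No treated library reached a control for DKC1. After reversine, BafA1 and MG132, 10.1%, 7.42% and 13.5% of tested rows lay wholly below control. FBL, the 2′-O-methyltransferase of C/D particles, stood at 239.6, 232 and 264 FPKM in control and 79.8, 71.4 and 66.0 FPKM after MG132, a difference of -1.75 ± 0.23 (limma adjusted p = 0.00122), and NHP2 fell by 1.29 (limma adjusted p = 0.000362). NOP56, itself a snoRNA host, fell by 0.55 after reversine (limma adjusted p = 0.00672) and by 0.90 after BafA1 (limma adjusted p = 0.0015).

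The MG132 falls of DKC1, FBL, NHP2, NOP56 and RUVBL1 were called in all 19 alternatives, and the list count there ran from 5 to 9. The reversine count dropped to 0 when control 3 was left out, to 1 when control 1 was, and to 2 when control 2 or reversine 2 was; with only the 2 groups in the fit it was 0. Without control 3, NOP56 after reversine had a limma adjusted p of 0.0735, with median-ratio scaling 0.133 and with only the 2 groups 0.152. The NOP56 call after BafA1 was lost with only the 2 groups (limma adjusted p = 0.0605). The reversine calls of DKC1, RUVBL1 and FBL were kept in 13, 12 and 15 of 19 alternatives, and that of NHP2L1 after MG132 in 17. DKC1 after BafA1 (-0.78, limma adjusted p = 0.0371) kept its call in 5 of 19 alternatives and lost it when any library except reversine 1 or MG132 1 was left out (limma adjusted p from 0.0643 to 0.308).

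Protein-coding snoRNA hosts, which make a snoRNA and a protein from 1 transcript, numbered 31, all tested. After reversine 3 fell (NOP56, HSPA8 and DKC1), after BafA1 2 fell (NOP56 and DKC1), and none rose. After MG132 3 rose (HSPA8, HSPA9 and TPT1) and 4 fell (DKC1, NOP56, RPS2 and RPSA), that is 3 and 4 of 31 beside 7.14% of all rows higher and 7.67% lower. Lower calls over all rows were 1.29% after reversine and 0.0619% after BafA1. The list medians were -0.31, -0.09 and 0.07. HSPA8, the constitutive cytosolic HSP70 chaperone, showed the strongest contrast, from 1600.3, 1498 and 1874 FPKM in control to 5119, 5061 and 5135 FPKM after MG132 (1.63, limma adjusted p = 2.11e-05), while reversine libraries stood at 975, 1143 and 1075 FPKM. Its fall after reversine (-0.64, limma adjusted p = 0.0111) was lost in 4 of 19 alternatives: without control 1 (limma adjusted p = 0.0509), with median-ratio scaling (0.0691), without the 4 libraries falling with GC (0.0832) and with only the 2 groups (0.152). HSPA9, the mitochondrial HSP70, rose by 1.11 after MG132 (limma adjusted p = 0.000198). The calls of RPS2 and RPSA were kept in 11 and 9 of 19 alternatives and that of TPT1 in 18. With median-ratio scaling 3 rose and 10 fell in this list after MG132.

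**Figure D4:**
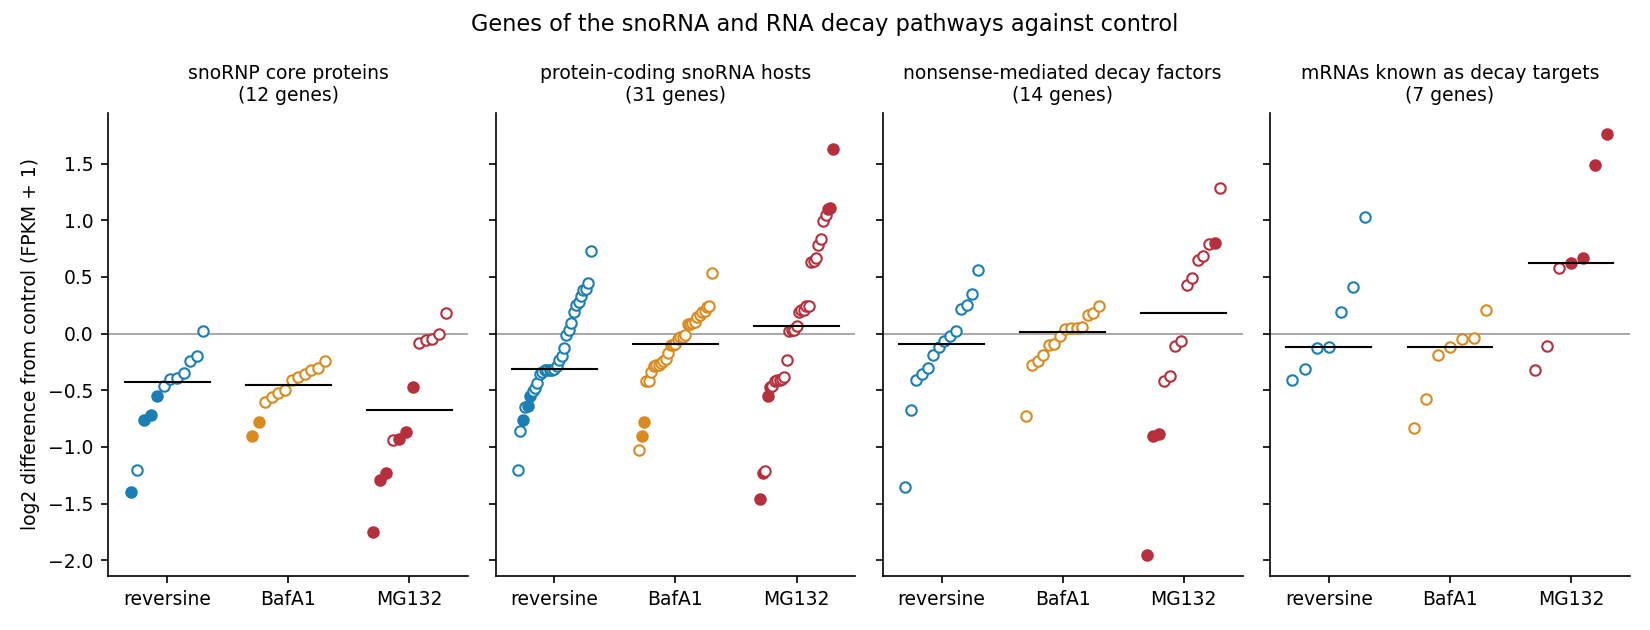
Log2 difference from control on the log2(FPKM + 1) scale (vertical axis) of each tested gene in 4 lists, ordered by value within each treatment; filled points passed limma's test at an adjusted p of 0.05 and the black line is the list median. The genes listed for snoRNA particles lie mostly below 0, with medians of -0.43, -0.46 and -0.67, and the decay targets have a median of 0.62 after MG132.

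Nonsense-mediated decay factors were not called after reversine or BafA1 in any of 14 genes, where 2.09% and 0.264% of all rows were. After MG132 SMG1, the kinase that phosphorylates UPF1, rose (0.80, limma adjusted p = 0.0146), and 3 fell: EIF4A3, a core protein of the exon junction complex (-1.95, limma adjusted p = 0.00749), the helicase UPF1 (-0.90, limma adjusted p = 0.0247) and SMG9. Beside these 1 and 3 of 14, 7.14% of all rows were called higher and 7.67% lower. The list median was 0.18. No member of the list was called without the 4 libraries in which values fell with GC. Leaving out control 2, control 3 or MG132 3 ended the SMG1 call (limma adjusted p from 0.0545 to 0.0607), as did the GC and length correction (0.44, adjusted p = 0.164) and median-ratio scaling (0.53, adjusted p = 0.138), and leaving out any control, MG132 2 or MG132 3 ended that of UPF1 (from 0.0521 to 0.112). The SMG9 call was kept in 12 of 19 alternatives.

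Of 7 messenger RNAs known as targets of that decay, none was called after reversine or BafA1 (2.09% and 0.264% of all rows were). After MG132 4 rose (ATF4, GADD45A, UPP1 and BAG1), with a list median of 0.62, beside 7.14% of all rows called higher. ATF4, the transcription factor of the integrated stress response, stood at 208, 225 and 204 FPKM in control and 503, 638 and 669 FPKM after MG132 (1.49, limma adjusted p = 0.000141). GADD45A, a growth-arrest gene induced by stress, stood at 78.6, 84.8 and 73.8 FPKM in control, 112, 194 and 196 FPKM after reversine, 51.3, 47.6 and 34.7 FPKM after BafA1 and 372, 233 and 228 FPKM after MG132 (1.76, limma adjusted p = 0.00244). For both, the MG132 libraries lay wholly above control, as 20.3% of tested rows did, and the calls held in all 19 alternatives. UPP1 (0.62, limma adjusted p = 0.0284) lost its call without any 1 of the controls, MG132 2 or MG132 3 (limma adjusted p from 0.0709 to 0.0936), with no filter (0.062) and with median-ratio scaling (0.34, adjusted p = 0.316). The BAG1 call was kept in 6 of 19 alternatives.

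For nuclear speckles, the structures where MALAT1 RNA resides, protein genes alone could be measured. Of 10 nuclear speckle genes, the splicing factors SRSF7 and SRSF1 fell after reversine, none was called after BafA1, and after MG132 SRSF5 and SON rose while SRSF7, SRSF1 and SRSF2 fell. Over all rows 1.29% were called lower after reversine, and 7.14% higher and 7.67% lower after MG132. The list medians were 0.01, 0.03 and 0.14. SRSF7 fell by 1.14 after reversine (limma adjusted p = 0.00118) and by 1.40 after MG132 (limma adjusted p = 7.2e-05). The reversine call of SRSF1 was kept in 7 of 19 alternatives and the MG132 call of SON in 11.

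GAS5 lies on chromosome 1, where RefSeq places the protein-coding gene ZBTB37 in overlap with it, and SNHG1 on chromosome 11 next to SLC3A2, an amino acid transporter subunit. ZBTB37 was at 0.81 to 1.77 FPKM in all libraries, far below GAS5. SLC3A2 was at 526, 416 and 846 FPKM in control, 206, 459.5 and 455 FPKM after reversine, 373, 394 and 219.7 FPKM after BafA1 and 742, 330.3 and 339 FPKM after MG132. Neither was called in a comparison with control (limma adjusted p from 0.28 to 0.977). In every group SLC3A2 was lowest in the library where SNHG1 was highest: control 2, reversine 1, BafA1 3 and MG132 2. The 9 genes listed as neighbours cover the whole set, and those besides ZBTB37 and SLC3A2 are listed for members without a row. Of the 9, 1 (FRMD8, not a neighbour of GAS5 or SNHG1) was called, lower after MG132 as 7.67% of all rows were. It kept that call in 7 of 19 alternatives. Whether reads were counted by strand is not given in the sources used here, so reads from overlapping genes on opposite strands cannot be told apart.

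Across the 12 libraries, the 5 genes most like the mean course of GAS5 and SNHG1, among 19369 genes whose mean reached 5 FPKM, were S100A11 (Pearson's r = 0.977), B2M (0.97), RP9 (0.97), RPL29 (0.965) and DAD1 (0.965). The correlations are over libraries that share the GC trend described above and are given as a description. RPL29, a protein of the large ribosomal subunit, was the only ribosomal protein gene of the 5.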

How the data were processed

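Gene values of 12 poly(A)-selected RNA libraries were read from 1 table. The deposited values are taken as FPKM, from column totals of 962891 to 2057717; per the submitters' processing notes the authors used Bowtie 1.0.0, RSEM 1.2.6 and hg19 (GRCh37). Samples were grouped by the labels' treatment. Differences were tested with limma 3.58.1 (R 4.3.3, trend) on log2(FPKM + 1), which makes changes of low genes smaller, for the 30712 rows that reached 1 FPKM in 3 or more libraries. The 4 groups entered 1 fit without covariates (8 residual degrees of freedom, 1.26 from the prior). Calls had a Benjamini-Hochberg adjusted p under 0.05 over all tested rows. The script was tested on simulated data. GC content and length came from GENCODE v29 transcripts (82.5% of tested rows); trends were fitted as splines on rows at 1 FPKM or more in every library. Results were recomputed under 19 alternatives (18 for ZBTB37, which the 5 FPKM filter removes): another pseudocount (0.1), no filter, a filter at 5 FPKM, median-ratio scaling, only the groups compared, GC and length correction, leaving out the 4 libraries falling with GC, and leaving out each of 12 libraries. Each member had 1 row, so summing rows changes nothing. Members and lists were chosen with earlier results of these data known, and overlap (NOP56 and DKC1 are in 2). Named genes were the members, other hosts, neighbours and up to 3 called genes of a list by adjusted p; further names complete a count. The list of paraspeckle protein genes is not reported here.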

Additional observations from a re-analysis of the deposited data

How the results depend on the processing

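No paired analysis was possible because the replicate numbers follow record order only. Of 69 gene results, 29 kept direction and call in every alternative run (19, or 18 for ZBTB37). The count of called members stayed 0 after BafA1; it became 1 (GAS5) after reversine without the 4 libraries falling with GC, and after MG132, where it was 1, it was 0 with no filter, median-ratio scaling, only the 2 groups or those 4 libraries left out. With GC and length correction the MG132 count stayed 1, but the called member was SNHG1, as lower, and GAS5 was not called. Leaving out single libraries gave 0 to 1 after MG132, for MG132 vs reversine and for MG132 vs BafA1. Rows called (reversine 642, BafA1 81, MG132 4549, BafA1 vs reversine 377, MG132 vs reversine 2000, MG132 vs BafA1 3334) became 11, 19, 2751, 2, 256 and 1413 with only the 2 groups. With GC and length correction they were 1686, 372, 6774, 903, 3153 and 4599, in the same order. Counts not given for a setting lay within 1.5-fold of the main count. Without the falling libraries they were 44, 2576, 171, 945 and 1753 for BafA1, MG132, BafA1 vs reversine, MG132 vs reversine and MG132 vs BafA1, and with median-ratio scaling 42 for BafA1 and 223 for BafA1 vs reversine. Leaving out single libraries gave 247 to 855, 19 to 132, 2435 to 13046, 142 to 458, 965 to 17101 and 1855 to 18445, in the order above. Uncalled differences changed sign. With the falling libraries left out, GAS5 was -0.01 for BafA1 and -0.25 for MG132 vs reversine, SNHG1 -0.41 for MG132 vs reversine and -0.22 for MG132 vs BafA1, and after MG132 SNHG10 was -1.24, SNHG16 -0.47, SNHG21 0.11 and SLC3A2 0.38. With correction, GAS5 was -0.11 and SNHG1 -0.25 for MG132 vs reversine, SNHG1 -0.06 for MG132 vs BafA1, SNHG14 -0.01 for BafA1 and SNHG16 -0.21 for MG132. With median-ratio scaling, GAS5 was -0.06 and SNHG1 -0.29 for MG132 vs reversine, SNHG14 -0.06 for BafA1 and -0.07 for MG132, and SNHG16 -0.25 for MG132. Leaving out single libraries, ranges crossing 0 were -0.01 to 0.26 for GAS5 after BafA1, and for SNHG1 -0.18 to 0.10 after reversine, -0.19 to 0.26 after MG132 and -0.16 to 0.30 for MG132 vs reversine. They were -0.49 to 0.11 and -0.37 to 0.22 for SNHG3 after reversine and BafA1, -0.03 to 0.07 for SNHG14 after BafA1, -0.21 to 0.06 and -0.12 to 0.28 for SNHG16 after BafA1 and MG132, -0.08 to 0.21 for SNHG20 after reversine, and -0.19 to 0.01 and -0.17 to 0.07 for ZBTB37 after reversine and BafA1. The cause of these changes was not tested.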
